A study of Rattus norvegicus with 2 samples.

Results

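Avil, which encodes the actin-severing protein advillin, and 9 further genes of the actin filament and its binding proteins were described in sympathetic neurons of rat stellate ganglia. The 10 genes, of 25399 listed in each library, were taken by their symbols: Avil, Gsn, Capg and Svil of the villin and gelsolin family, the beta-thymosins Tmsb4x and Tmsb10, the profilin gene Pfn1, the cofilin gene Cfl1, and the actin genes Actb and Actg1. The members were chosen by symbol, with earlier results of these data known. Avil was selected on its measured value, which is lower in the SHR library. The difference of Avil between the strains is therefore a description and not a finding. Ganglia were dissociated with collagenase and trypsin and their cells were sequenced in droplets with 3′ tag chemistry (scRNAseq), in 1 library of Wistar rats (normotensive) and 1 library of SHRs (spontaneously hypertensive rats, prehypertensive at this age), all of them males of 5 to 6 weeks of age with no further treatment. Each value is a mean over the neurons that the authors clustered, and is given here as the mean count per 10000 counts of a neuron. The stellate ganglion holds neurons with cardiac and with noncardiac targets, and the number of animals and of neurons behind each mean is not given in the sources used here.

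Each strain has a single library, so no spread between replicates exists and no difference below carries an error or a test. Strain and library coincide, so a difference between the strains cannot be told apart from a difference between the libraries. Depth per neuron is unknown, so counting error cannot be stated either. A lower mean can come from fewer neurons with the transcript or from fewer transcripts per neuron, and these means cannot tell the 2 apart. Differences are given as the percent change of the mean and as a log2 difference, which is log2(1 + mean) in SHR minus log2(1 + mean) in Wistar, where the added 1 shrinks the difference of genes with low means. Each transcript is counted by a tag at its 3′ end, so means were not divided by gene length when genes are set in order. The sympathetic markers Th, Dbh and Slc6a2 were abundant in both libraries, and the 8 sympathetic markers listed summed to 49.0 per 10000 in Wistar and 44.5 in SHR. Of the 8, 6 were lower in SHR, where 65.6% of all genes averaging at least 0.1 per 10000 were lower. Among the 6 were Dbh, the gene of dopamine beta-hydroxylase, at 10.2 and 6.36 per 10000 (log2 difference -0.61), and Slc18a2, the gene of the vesicular monoamine transporter, at 5.36 and 3.63. Th was close in both, at 10.2 and 10.1, and Phox2a was higher, at 6.03 and 7.82.

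Actin monomers assemble into filaments that shape the cell body, the axon and the growth cone. Beta-thymosins hold monomers in reserve and profilin delivers them to growing ends, whereas cofilin severs and disassembles older filaments. Proteins of the villin and gelsolin family share gelsolin-like repeats and cut, cap or bundle filaments. Advillin is known as the family member of peripheral sensory and sympathetic neurons.

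The members spanned more than 3 orders of magnitude in level, and their order was nearly the same in both libraries. In the Wistar library Tmsb4x was highest, followed by Actg1, Cfl1, Actb, Pfn1, Avil, Gsn, Tmsb10, Svil and Capg. In the SHR library Pfn1 stood above Actb, and the other 8 genes kept their places. Without replicates it cannot be said which neighbours in this order differ beyond their spread. Summed, the 10 genes made up 1.06% of the counts in Wistar and 1.51% in SHR, and the difference lay in the 5 members with higher SHR means, which summed to 88.5 per 10000 in Wistar and 139.9 in SHR. In the plot of levels Tmsb4x, Actg1, Cfl1, Pfn1 and Tmsb10 lie further right in SHR, and Actb and the 4 genes of the villin and gelsolin family further left.

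**Figure D1:**
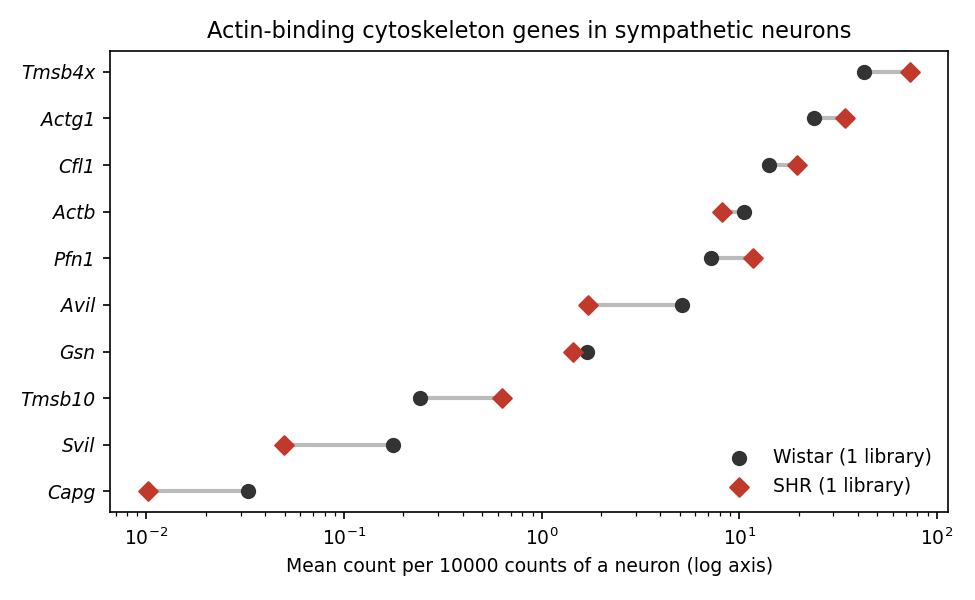
Mean count per 10000 counts of a neuron (log axis) of the 10 genes, with a circle for the 1 Wistar library and a diamond for the 1 SHR library. Tmsb4x, Actg1, Cfl1, Pfn1 and Tmsb10 lie higher in SHR, and Avil, Actb, Gsn, Svil and Capg lie lower.

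Among the villin and gelsolin family, all 4 members had lower means in SHR. Avil averaged 5.15 per 10000 in the Wistar neurons and 1.72 in the SHR neurons, 66.6% lower, with a log2 difference of -1.18. It ranked 241 among all genes by level in Wistar and 922 in SHR, and its log2 difference was the 6th lowest of the 7621 genes that averaged at least 0.1 per 10000 over both libraries. Of these 7621 genes, 2.15% were lower in SHR by a log2 difference of at least 0.5, the size taken here as a limit in place of a test, and 65.6% were lower by any amount. In the other direction 1.23% were higher by that size, so that 94 genes were higher and 164 lower. With the differences centred on the median gene, 147 were higher and 115 lower.

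Gsn, the gene of gelsolin, averaged 1.70 per 10000 in Wistar and 1.45 in SHR, 14.9% lower, with a log2 difference of -0.14. Svil, which encodes the membrane-linked supervillin, went from 0.177 per 10000 in Wistar to 0.0496 in SHR, 71.9% lower. Capg, which encodes a capping protein of this family that does not sever, went from 0.0325 to 0.0102 per 10000, 68.7% lower. The means of Svil and Capg were so low that their log2 differences were -0.16 and -0.03, and Capg did not reach the average of 0.1 per 10000 that the other 9 members passed. Of the 4 genes, Gsn thus had the smallest percent difference.

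The rest of the family was Flii, with 1.19 per 10000 in Wistar and 0.678 in SHR (log2 difference -0.38), and Vil1, the villin gene of gut epithelium, at 0.0123 and 0.00964. Vill stood at 0.000876 per 10000 in Wistar and is listed at 0 in SHR, and Scin is listed at 0 in both. Avil made up 62.3% of the family sum in Wistar and 43.9% in SHR, while the share of Gsn went from 20.6% to 37.0%. Avil was selected for its fall, so its smaller share and its ratios below follow in part from that choice. The share of Gsn was larger in SHR although its own mean was 14.9% lower. Such shares are taken within a library, so a factor common to that library cancels. The scaling of each neuron to 10000 before averaging does not cancel. Avil stood at 3.02 times the Gsn mean in Wistar and at 1.19 times in SHR. Set against each of the 8 sympathetic markers in turn, the SHR ratio of Avil was between 0.185 (to Hand2) and 0.536 (to Dbh) of the Wistar ratio. For Slc6a2, the noradrenaline transporter gene, Avil stood at 0.324 of its mean in Wistar and at 0.113 in SHR, and for Dbh at 0.505 and 0.271.

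The family summed to 8.26 per 10000 in Wistar and 3.92 in SHR, 52.6% lower. Avil, which was selected for its fall, supplied 5.15 and 1.72 of these sums, so the family sum is no separate result. Markers of other cell types were also lower in SHR. All 5 glial markers were lower, with a sum of 6.98 per 10000 in Wistar and 2.40 in SHR, as were all 6 fibroblast markers (1.84 and 0.353), all 4 endothelial markers with a line (0.103 and 0.0345) and 5 of 6 immune markers (1.21 and 0.399). Of the smooth muscle markers 3 of 5 were lower (sums of 0.117 and 0.0798), and of the erythrocyte markers Hbb was lower and Hba-a2 higher (sums of 0.0669 and 0.0499), with Alas2 at 0 in both libraries. Most of these markers averaged under 0.1 per 10000, and of all 16389 genes above 0 in either library 68.1% were lower in SHR. Apoe, a lipid carrier gene of glia and macrophages, supplied most of the glial sum, at 6.24 per 10000 in Wistar and 2.23 in SHR. Avil, Gsn, Svil and Capg each had means below the glial sum in both libraries, and Svil and Capg also below the immune sum. A gene's mean set against a sum of markers does not show which cells supplied its counts. The part of these cell types in the values of Avil, Gsn, Svil and Capg was not tested.

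**Figure D2:**
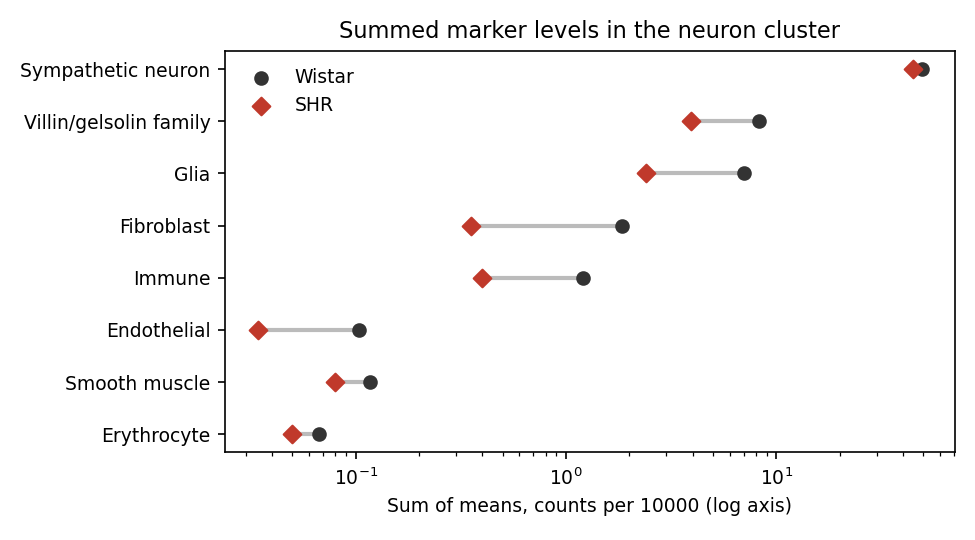
Sum of the means (counts per 10000, log axis) over the markers of each cell type and over the villin and gelsolin family in the sympathetic neuron cluster, with a circle for Wistar and a diamond for SHR. All 8 sums are lower in SHR, with the sympathetic markers at 49.0 and 44.5, the family at 8.26 and 3.92 and the glial markers at 6.98 and 2.40. The family sum includes Avil, which was selected for its lower SHR mean.

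By level and difference, the genes most like Avil were Apoe, Pcp4, Snrnp70, Rock1 and Xkr6. They were the 5 nearest in log2 difference among 284 genes with a Wistar mean within 1.5-fold of that of Avil, a likeness over 2 libraries only. Apoe had a log2 difference of -1.16, which lay 0.012 from that of Avil. Pcp4, a calmodulin-binding peptide gene, was at 7.26 per 10000 in Wistar and 2.40 in SHR (log2 difference -1.28). Rock1, which encodes a kinase that acts on the actin and myosin machinery, was at 4.71 and 1.84 (log2 difference -1.01). Snrnp70, of the spliceosome, and Xkr6 had log2 differences of -1.03 and -0.94.

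The 2 beta-thymosin members were higher in SHR. Tmsb4x, the gene of thymosin beta 4, averaged 43.0 per 10000 in Wistar and 73.5 in SHR, 70.9% higher, with a log2 difference of 0.76. It ranked 18 among all genes by level in Wistar and 12 in SHR, and its difference was the 13th highest of the 7621 genes. Tmsb10 was much lower in level, at 0.242 per 10000 in Wistar and 0.633 in SHR, 2.62 times the Wistar mean, with a log2 difference of 0.40. The third beta-thymosin gene with a line, Tmsb15b2, was at 0.974 and 1.73 per 10000 (log2 difference 0.47). Tmsb4x made up 97.3% of the beta-thymosin sum in Wistar and 96.9% in SHR, so the makeup of this family was close in both libraries while its sum went from 44.2 to 75.9 per 10000.

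Pfn1, the widely expressed profilin gene, averaged 7.21 per 10000 in Wistar and 11.7 in SHR, 62.6% higher, with a log2 difference of 0.63. Pfn2, the profilin gene known from neurons, was lower in level, at 0.332 and 0.499 per 10000 (log2 difference 0.17). Pfn3 and Pfn4, known from testis, were at most 0.0277 per 10000 in either library. Pfn1 thus held 95.3% of the profilin sum in Wistar and 95.7% in SHR.

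Cfl1, the main nonmuscle cofilin gene, averaged 14.1 per 10000 in Wistar and 19.6 in SHR, 38.9% higher, with a log2 difference of 0.45. Its relatives Dstn (2.22 and 2.59 per 10000, log2 difference 0.16) and Cfl2 (1.77 and 2.03, log2 difference 0.13) were also higher in SHR, by smaller amounts. Cfl1 made up 78.0% of the ADF/cofilin sum in Wistar and 80.9% in SHR.

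The 2 cytoplasmic actin genes differed in direction. Actg1, the gene of gamma-actin, averaged 23.9 per 10000 in Wistar and 34.4 in SHR, 44.1% higher, with a log2 difference of 0.51. Actb, the gene of beta-actin, averaged 10.6 per 10000 in Wistar and 8.20 in SHR, 22.8% lower, with a log2 difference of -0.34. The ratio of Actg1 to Actb was 2.25 in Wistar and 4.20 in SHR, and the share of Actb in the actin sum went from 30.4% to 19.0%. Of the muscle actin genes, Acta1 was at 0.446 and 0.565 per 10000, Acta2 at 0.00983 and 0.0106, Actg2 at 0.000162 and 0.00101, and Actc1 at 0 in both libraries. Actb and Actg1 encode near-identical proteins. Whether reads in similar coding sequence were split between them or dropped by the counting was not tested.

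**Figure D3:**
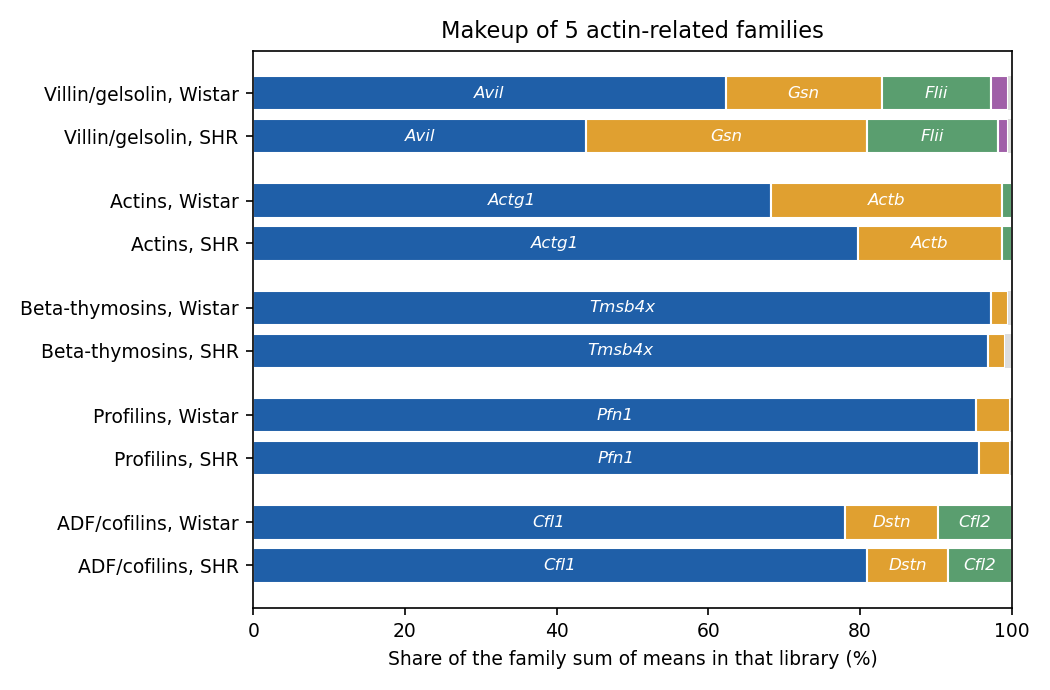
Share of each gene (%) in the summed means of its family, with 1 bar per family and library; genes are ordered by share, shares under 8% are drawn without a name, and grey marks all genes that stay under 1%. Avil goes from 62.3% of the villin and gelsolin sum in Wistar to 43.9% in SHR and Actb from 30.4% to 19.0% of the actins, while Tmsb4x, Pfn1 and Cfl1 hold nearly the same shares. Avil was selected for its lower SHR mean, from which its smaller share follows in part.

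Relative to actin, the monomer-binding genes also differed in level between the libraries. Actb and Actg1 summed to 34.5 per 10000 in Wistar and 42.6 in SHR. Per unit of this sum, Tmsb4x was at 1.25 in Wistar and 1.72 in SHR, Pfn1 at 0.209 and 0.275, and Cfl1 at 0.409 and 0.460. Avil per unit of actin was at 0.149 and 0.0404. A factor common to a library cancels in these ratios, but the scaling of each neuron does not.

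Of the 10 members, 5 were lower and 5 higher in SHR, and of the 7 that averaged at least 1 per 10000, 3 were lower and 4 higher. Among all 1676 genes at that level, 45.5% were lower and 54.5% higher. Of the 7, Avil was lower and Tmsb4x, Pfn1 and Actg1 were higher by at least 0.5 in log2, against 5.91% and 5.49% of the 1676 genes. The median log2 difference of the 7 members was 0.45, against 0.04 for the 1676 genes. The members were proposed with these values in view, so the counts describe them and support nothing further.

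**Figure D4:**
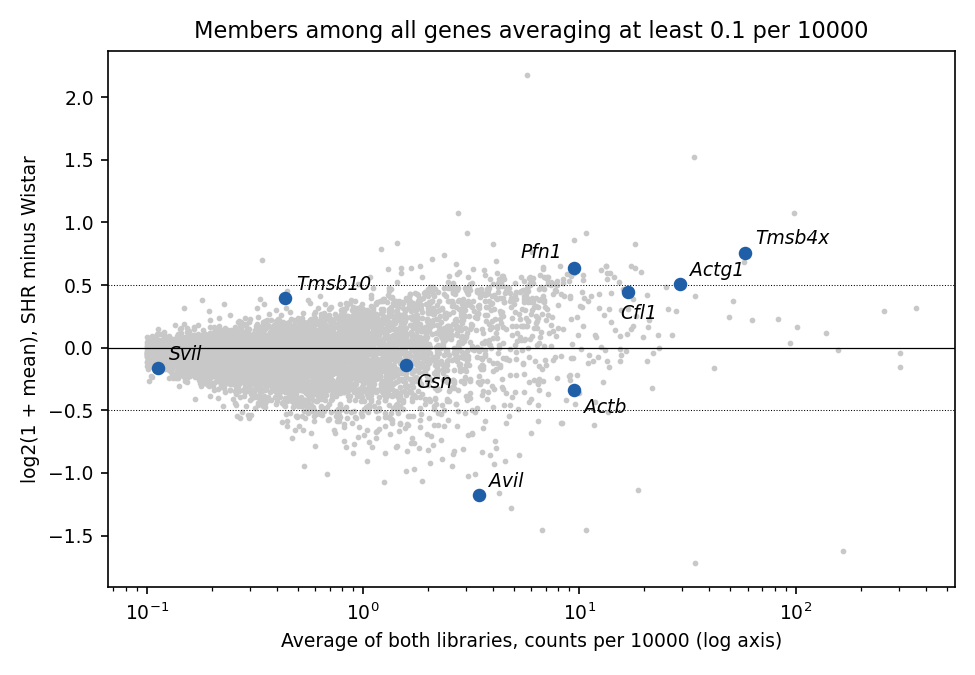
Difference of log2(1 + mean), SHR minus Wistar, against the average of both libraries (counts per 10000, log axis) for the 7621 genes averaging at least 0.1 per 10000 (grey), with 9 members in blue; Capg is below that average. Dotted lines mark log2 differences of -0.5 and 0.5; Avil lies at -1.18 and Tmsb4x at 0.76.

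Gene length moved with the direction of the difference. Of the genes past the average of 0.1 per 10000, 7291 were split into 10 groups by their span in the GRCr8 assembly. In the group of the shortest genes 73.0% were higher in SHR, and in the group of the longest genes 85.6% were lower. All 5 members with higher SHR means were in the shortest group, where the median log2 difference was 0.09, and so was Actb, which was lower. Avil was in the fifth group, in which 66.8% of genes were lower and the median log2 difference was -0.05, Gsn in the eighth and Svil in the longest. The part of gene length in these values was not tested.

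The starts of the genes were compared for 2 short motifs, since serum response factor (SRF), which responds to the pool of actin monomers through its cofactors, is known to bind the CArG box of many cytoskeletal genes. The RefSeq promoters of GRCr8 used here covered 8 members and had no entry for Actb and Capg, which were therefore not searched. A single promoter per gene symbol was taken, so any other starts of a gene were not searched. The CArG box was searched by its name's consensus and CCAAT by its letters, both on either strand and in the 250 bases before the start, where no match overlapped another. A CArG box was in 2 of the 8 (Actg1 and Svil) and in 1.5% of all 27457 promoters. CCAAT was in 4 of the 8 (Avil, Svil, Cfl1 and Actg1) and in 34.3% of all. The 250 bases before the start are shown for Avil and Tmsb4x, the members with the largest log2 differences in either direction at the added 1 (by percent, Svil and Tmsb10 differed most), and for Actg1 and Svil, with the CArG boxes. Capitals mark CCAAT (or ATTGG, its other strand) and the CArG boxes CCATATATGG in Actg1 and CCATAAAAGG in Svil.
Avil (chr7:64711153-64711402, plus strand): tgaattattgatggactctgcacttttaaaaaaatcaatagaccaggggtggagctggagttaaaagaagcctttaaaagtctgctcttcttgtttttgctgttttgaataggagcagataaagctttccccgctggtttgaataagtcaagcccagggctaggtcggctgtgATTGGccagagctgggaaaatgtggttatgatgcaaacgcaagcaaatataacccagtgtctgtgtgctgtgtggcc
Tmsb4x (chrX:30761361-30761610, plus strand): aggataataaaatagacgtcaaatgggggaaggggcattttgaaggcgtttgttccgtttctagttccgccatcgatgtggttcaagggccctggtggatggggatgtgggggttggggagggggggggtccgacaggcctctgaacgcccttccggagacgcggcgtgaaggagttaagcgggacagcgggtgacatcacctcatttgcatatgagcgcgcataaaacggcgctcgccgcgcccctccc
Actg1 (chr10:106120952-106121201, minus strand): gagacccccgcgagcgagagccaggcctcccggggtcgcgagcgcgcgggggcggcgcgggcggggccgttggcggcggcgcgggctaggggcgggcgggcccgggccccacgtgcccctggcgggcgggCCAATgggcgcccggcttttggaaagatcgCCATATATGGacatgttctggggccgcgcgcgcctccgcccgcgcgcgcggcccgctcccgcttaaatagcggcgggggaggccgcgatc
Svil (chr17:57462661-57462910, minus strand): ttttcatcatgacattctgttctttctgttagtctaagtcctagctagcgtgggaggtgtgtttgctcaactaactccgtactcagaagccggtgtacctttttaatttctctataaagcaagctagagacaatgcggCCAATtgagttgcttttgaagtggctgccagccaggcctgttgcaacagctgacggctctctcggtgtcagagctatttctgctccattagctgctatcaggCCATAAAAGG

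The CArG box of Actg1 lay 90 to 81 bases before its start and that of Svil 10 to 1 bases before it, and these genes differed in opposite directions between the libraries. G and C made up 44.0% of the Avil bases, 46.4% of the Svil bases, 59.2% of those of Tmsb4x and 79.2% of those of Actg1, against a mean of 52.6% over all promoters. A match is a description of the letters and not a site of binding. The values were counted on the Rnor_6.0 assembly per the submitters' processing notes, so the coordinates of GRCr8 serve only to place the sequences.

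The wider actin machinery lay near the background of all genes. Of 120 further genes in 14 lists, 113 had a line and 79 averaged at least 0.1 per 10000, of which 48 were lower and 31 higher in SHR, where 65.6% of all genes past that average were lower. Their median log2 difference was -0.06, against -0.05 for all 7621 genes. Only Actn1 and Dbn1 differed by at least 0.5 in log2 among the 79, and both were lower, against 2.15% of all genes lower and 1.23% higher by that size. The share lower in the lists below is to be read against the same 65.6%, and the share higher against 34.4%, or 54.5% at an average of at least 1 per 10000. The sum of all 113 genes was 106.9 per 10000 in Wistar and 106.3 in SHR.

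Genes of the Arp2/3 complex, which starts branched filaments, were higher in 8 of 9 cases (34.4% of all genes, or 54.5% of those averaging at least 1 per 10000), with a median log2 difference of 0.23. Arpc1a was highest, at 3.73 per 10000 in Wistar and 5.48 in SHR (log2 difference 0.45), Arpc2 was at 2.57 and 2.88, and Arpc3 was the exception, at 2.75 and 2.69. Of the genes of the WAVE and WASP activators of this complex, 6 of 8 were lower (65.6% of all genes), among them Cyfip2 (2.67 and 2.59) and Cyfip1 (0.583 and 0.25), whereas the small subunit gene Brk1 was higher (1.65 and 2.39, log2 difference 0.35).

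Genes of the formins and Ena/VASP proteins, which lengthen unbranched filaments, and of the Spire nucleators were lower in 9 of 10 cases (65.6% of all genes), with a median log2 difference of -0.13. Evl was the most abundant (3.19 per 10000 in Wistar and 2.93 in SHR), Vasp was at 0.858 and 0.668, and Daam1 had the largest difference (0.860 and 0.423, log2 difference -0.39). Spire2 was higher, at 0.173 and 0.245. Of these 10 genes, 7 were in the longest 2 of the 10 length groups, in which 83.8% and 85.6% of all genes were lower. Of the 8 WAVE and WASP genes, 4 were in these groups.

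Spectrins, which form the membrane skeleton with actin, and the ERM linkers were lower in 5 of 5 cases (65.6% of all genes), with a median log2 difference of -0.28. These 5 genes were in the seventh to the longest length group, in which 76.1% to 85.6% of genes were lower. Sptan1 was at 6.95 per 10000 in Wistar and 4.97 in SHR (log2 difference -0.41), whereas Msn, the gene of moesin, was at 3.52 and 3.48. Of the bundling and crosslinking genes 9 of 14 were lower, near the share of all genes, with Dbn1, the gene of the neuronal actin-binding protein drebrin, at 2.13 and 1.01 (log2 difference -0.64) and Actn1, an alpha-actinin gene, at 2.90 and 1.54 (log2 difference -0.62). In the same list Marcks was at 2.43 and 2.65 and Marcksl1 at 0.638 and 1.10.

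Of the regulators of cofilin 5 of 8 were lower, again near the 65.6% of all genes. Limk2, a kinase gene whose product inactivates cofilin, was at 0.422 per 10000 in Wistar and 0.0975 in SHR (log2 difference -0.37), and Pdxp, which encodes a phosphatase that reactivates it, was at 0.771 and 1.46 (log2 difference 0.48). Wdr1, a cofactor of cofilin, was at 1.74 and 2.32, and Cap1 at 1.79 and 1.67. Among capping proteins and tropomodulins 7 of 11 were lower, with the barbed-end capping subunit genes Capzb (2.16 and 2.98) and Capza2 (2.10 and 2.43) higher, Tmod1 higher (1.19 and 1.83) and Tmod3 lower (0.660 and 0.282). Tropomyosin genes were lower in 2 of 3 cases, Tpm1 at 1.22 and 1.05, Tpm3 at 1.30 and 1.12 and Tpm4 at 0.117 and 0.151. Of the nonmuscle myosin II genes 3 of 5 were lower, and the light chain genes Myl6 (8.87 and 10.7) and Myl12b (2.49 and 2.88) were higher while Myl12a was at 0.244 and 0.181.

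**Figure D5:**
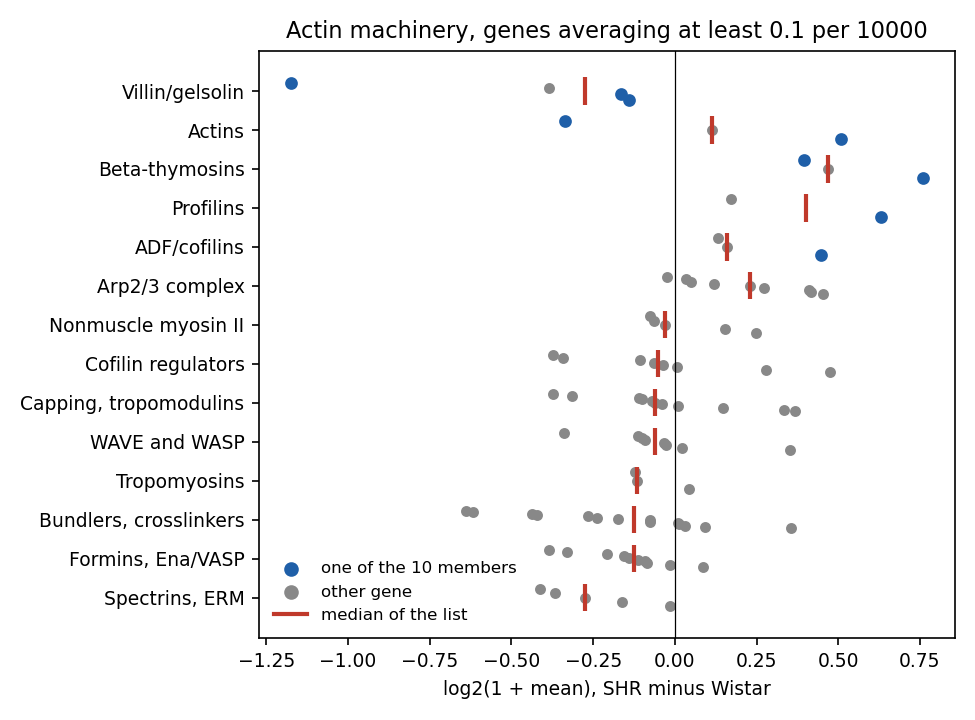
Difference of log2(1 + mean), SHR minus Wistar, for the genes of 14 lists of the actin machinery that averaged at least 0.1 per 10000; each point is a gene, members in blue and others in grey, and the red bar is the median of the list. Medians run from -0.28 in the spectrin and ERM list to 0.47 in the beta-thymosins.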

How the data were processed

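Single cells of stellate ganglia were sequenced with 10x Genomics droplet chemistry, 1 library per strain. Per the submitters' processing notes, Cell Ranger 3.0.2, Seurat 3 and the Rnor_6.0 assembly were used. The notes also name DESeq2, which was not used here. Filters on cells and the treatment of doublets are not given in the sources used here. The authors deposited, per library and gene, a natural log value, ln(1 + mean), in which the mean is over the sympathetic neurons and each neuron's counts are scaled to 10000. Converted back, the 25399 lines sum to 10000 in each library. 4 lines whose names occur more than once entered only this sum. A further deposited table holds the authors' own fold changes, p-values and shares of cells with a gene detected, and was not used. Its 2 columns of shares name no strain.

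Differences were computed with Python 3.11.15, NumPy 2.4.6 and pandas 2.3.3 as the deposited logs subtracted and divided by the natural log of 2, and checked on simulated data. No test was possible with 1 library per strain. The members and gene lists were chosen with earlier results of these data known. Besides the members, the genes named are the 2 with the highest average, the largest fall and the largest rise in each list (at an average of at least 0.1 per 10000), the 5 nearest to Avil, and the remaining genes of the families of the members. Spans in GRCr8 were matched by symbol or synonym for 95.7% of the genes past that average and used as ranks. The CArG box was searched as CC, then 6 bases of A or T, then GG. Some genes under these rules are not reported here. Other pseudocounts, scalings, centrings and minimums were tried.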

Additional observations from a re-analysis of the deposited data

How the results depend on the processing

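A pseudocount cannot change a direction. The members' directions also did not change when mitochondrial and ribosomal protein genes, markers of other cell types, the 20 genes of highest average or the 10 members (the last chosen after seeing the data) were left out of the total. With all differences centred on the median gene (average of at least 0.1 per 10000), Capg became higher in SHR (log2 difference 0.02), so that 4 of the 10 members were lower in place of 5. The log2 difference of Avil was -1.53, -1.57 and -0.37 with pseudocounts of 0.1, 0.01 and 10, -1.24 without the 20 genes of highest average and -1.12 with the median set to 0. With pseudocounts of 0.1 and 0.01, that of Svil went from -0.16 to -0.89 and -1.65, that of Tmsb10 from 0.40 to 1.10 and 1.35 and that of Capg from -0.03 to -0.27 and -1.08, which takes Svil and Tmsb10 past a size of 0.5 at both and Capg at 0.01. With 10 they were -0.018, 0.054 and -0.0032.

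With pseudocounts of 0.1, 0.01 and 10, 1666, 2294 and 5 genes were lower and 397, 594 and 7 higher by at least 0.5 in log2, in place of 164 and 94. Without mitochondrial and ribosomal protein genes 209 were lower and 151 higher, with the median set to 0 the balance turned to 115 lower and 147 higher, and at a minimum of 1 per 10000 it was 99 lower and 92 higher. Without the 20 genes of highest average 242 were lower and 141 higher. The median of the wider machinery with the members, -0.05, became -0.12 and -0.16 with pseudocounts of 0.1 and 0.01. It reversed to 0.0036 with the median of all genes set to 0 and to 0.041 at a minimum of 1 per 10000. The pseudocount and the centring act by construction, as does the smaller number of genes on the counts. At the minimum of 1 per 10000 the median of all genes was 0.04, against -0.05 at a minimum of 0.1. For the rest the cause was not tested. No paired analysis was possible because there is a single library for either strain.

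Depth is unknown, so the values of Capg, Svil and Tmsb10, the members of lowest mean, are the least certain.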
